A study of Homo sapiens with 8 samples.

Results

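The comparison described here is that of RNA recovered with the J2 antibody against input RNA in cells that received no drug. It rests on 4 of the 8 libraries of the series, taken by their labels: 2 of J2 RNA and 2 of input RNA, all from SUM159 cells treated for 12 h with DMSO, the drug's solvent. SUM159 is an established human triple-negative breast cancer line of mesenchymal type, and the libraries are labelled as biological duplicates. The 2 other pairs of libraries, input and J2 RNA from cells treated with the spliceosome inhibitor H3B-8800, lent only their spread between replicates to the tests. Library preparation selected polyadenylated RNA and kept strand. The 4 libraries compared carry no transgene and no other agent. No immunoprecipitation with a control antibody was used here and none of the libraries carries a spike-in, so a difference gives the make-up of J2 RNA relative to input at equal depth, not the fraction of a transcript that the antibody recovered. It also does not separate double-stranded RNA from RNA that came down for other reasons.

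J2 is a mouse monoclonal antibody that binds the RNA double helix largely without regard to its sequence. In human cells such helices form where a transcript folds back on an inverted copy of a repeat, most often a pair of Alu elements in introns and 3′ untranslated regions (UTRs), and where sense and antisense transcripts meet. The editing enzyme ADAR unwinds long helices by turning adenosine into inosine. The sensors MDA5 (gene IFIH1), RIG-I (gene DDX58) and PKR (gene EIF2AK2) respond to helices that escape it.

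The files count, for each of 142206 introns in 15902 genes, the reads inside the intron and the reads spliced across it. Spliced reads stand here for mature transcripts and intronic reads for RNA that still holds the intron. Values are reads per 1000000 (RPM) of library depth, which was 48000000 and 51000000 reads for input replicates 1 and 2 and 53000000 and 57000000 for J2 replicates 1 and 2. The listed introns held 12612577 and 13548343 reads in the input libraries and 13795626 and 14643731 in the J2 libraries. Gene values of 1 kind of RNA were alike between replicates (Pearson correlation of log2 spliced values 0.995 for input and 0.994 for J2, across genes), and lower between J2 and input (0.939 to 0.942). Of 15 mesenchymal genes, 13 had at least 1 RPM, with summed spliced reads of 3142 and 3208 RPM in input and 3048 and 2859 RPM in J2 RNA. Of 15 luminal genes 4 reached that level (summed 230 to 267 RPM over the 4 libraries), and the hormone receptor genes ESR1 and PGR had no spliced reads. Of 15 immune genes only CD68 reached it, and the summed level of the list was 8.25 to 9.53 RPM.

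Spliced reads differed between J2 and input RNA for most genes. Of 7826 genes with a mean of at least 1 RPM over the 4 libraries, 4764 (60.9%) passed an adjusted p of 0.05 (edgeR's quasi-likelihood test with Benjamini-Hochberg adjustment). In J2 RNA 1382 genes (17.7%) were higher and 3382 (43.2%) lower, and the median log2 fold change was -0.23. This balance rests on scaling by library depth. Scaling by the median of gene ratios, which raises every value by about the shift of the median gene (to 0.10), gave 2825 higher and 2137 lower, and TMM scaling gave 2352 and 2524. Folds below are by library depth, and gene groups are therefore read against the median of all genes.

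**Figure D1:**
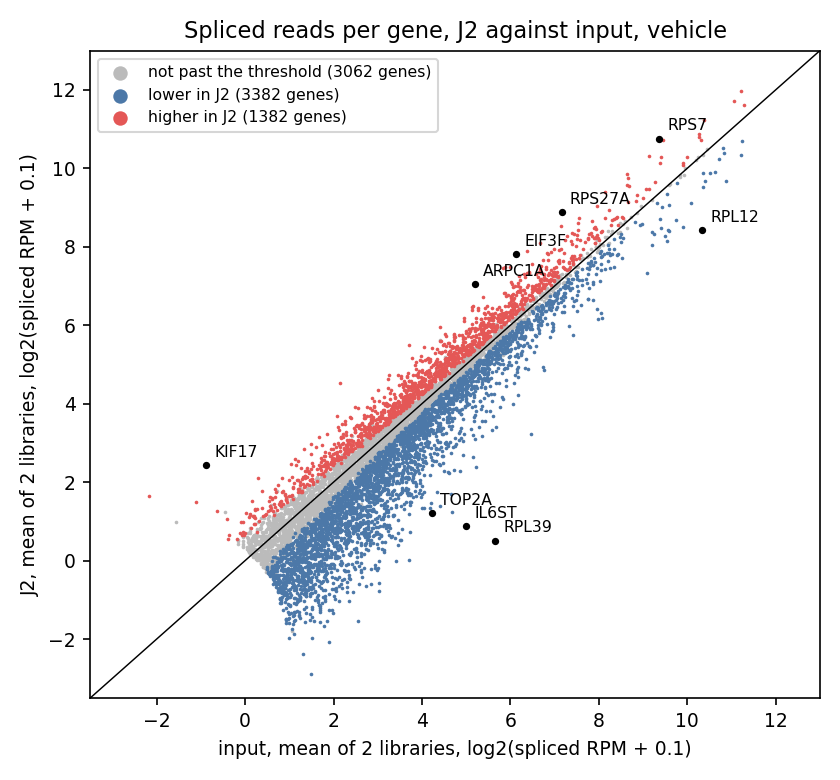
Spliced reads of 7826 genes in input (x axis) and J2 RNA (y axis), as log2 of RPM + 0.1, mean of 2 libraries each. Points on the diagonal have equal values, and the 3382 genes lower in J2 RNA form a wide cloud beneath it that reaches from weak to strong genes, against 1382 higher genes in a narrower one.

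Among the genes higher in J2 RNA, ARPC1A, a subunit of the Arp2/3 actin nucleator, had 36.2 and 36.9 RPM of spliced reads in the input against 131 and 134 RPM in J2 RNA. Its log2 fold change of J2 over input was 1.86 ± 0.07 (SE, adjusted p = 3.14e-07). CRADD, a caspase adaptor, had 13.3 and 12.7 RPM in the input against 44.1 and 45.6 RPM in J2 RNA (1.79, adjusted p = 2.11e-06). RPS27A, which encodes a ubiquitin and ribosomal protein fusion, had 140 and 145 RPM against 495 and 447 RPM (1.72 ± 0.12, adjusted p = 5.42e-06). In these genes both J2 libraries lay at more than 3 times both input libraries. The translation initiation factor gene EIF3F had 69.6 and 69.4 RPM against 221 and 229 RPM (1.69 ± 0.06, adjusted p = 2.7e-07). The further leading genes were NBPF3 (1.62), ARL6IP4 (1.61), NT5DC2 (1.61) and the recombination helicase gene RAD54L (1.56). NBPF14 had 4.60 and 4.04 RPM against 26.8 and 19.1 RPM (2.41 ± 0.36, adjusted p = 0.000365), but it belongs with NBPF3 to a family of near-identical copies, so its reads are uncertain.

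The largest rise among the leading genes, in the kinesin gene KIF17, rested on 1 library. It had 0.25 and 0.627 RPM in the input, 0.811 RPM in J2 replicate 1 and 9.74 RPM in J2 replicate 2 (3.57 ± 0.96, adjusted p = 0.0096). Leaving out 1 library at a time gave log2 fold changes from 0.87 to 4.45, with adjusted p up to 0.235. In J2 replicate 2 its introns 11, 13 and 14 alone held 2.61, 2.37 and 2.35 RPM.

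The falls were larger than the rises. RPL39, a gene of the large ribosomal subunit with a very short transcript, had 47.6 and 53.1 RPM of spliced reads in the input against 1.25 and 1.40 RPM in J2 RNA, which is 37.9-fold lower (log2 -5.24 ± 0.53, adjusted p = 3.46e-05). IL6ST, the signalling receptor subunit of the interleukin 6 family, had 31.8 RPM in both input libraries and 1.51 and 1.95 RPM in J2 RNA, 18.3-fold lower (-4.20 ± 0.24, adjusted p = 1.91e-06). The carboxypeptidase gene CPD had 5.67 and 5.8 RPM in the input against 0.226 and 0.263 RPM in J2 RNA (-4.53). No J2 library of these genes came near an input library. SMG1, a kinase of nonsense-mediated decay, had 10.1 and 10.9 RPM against 0.981 and 0.789 RPM (-3.57 ± 0.17). The others in the lead were the ubiquitin-activating enzyme gene UBA6 (-4.06), AHNAK2 (-3.84), ARHGAP29 (-3.79), the mRNA export gene THOC2 (-3.67), the translocon gene SEC61G (-3.65) and KIAA1033 (-3.59). Both very short transcripts (RPL39 with 401 bases, SEC61G with 459) and very long ones (SMG1 with 16115, AHNAK2 with 18254) were among them.

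Within a gene, spliced reads in J2 RNA fell towards the 5′ end. In 2574 genes with at least 8 listed introns and 5 RPM, the listed introns were cut by position into 4 groups of about equal number, and the first group was set against the last. The median log2 ratio of spliced reads, first over last, was -0.45 and -0.46 in the 2 input libraries and -1.04 and -1.03 in the 2 J2 libraries, so that the groups did not overlap. In 1873 of these genes (72.8%) both J2 libraries had a lower ratio than both input libraries, and in 291 (11.3%) a higher one. From the first to the last of these groups, the median log2 of J2 over input went through -0.49, -0.34, -0.16 and 0.04. In genes with at least 15 listed introns it went through -0.91, -0.65, -0.35 and -0.05. A poly(A) selection keeps the 3′ part of a broken transcript. Whether the J2 RNA was more broken than the input was not tested, and RNA integrity values were not used here. The fold of a whole gene thus depends on which of its introns are summed.

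The same gradient was seen per junction. Of 28185 junctions with at least 1 RPM in 5612 genes, those within 250 bases of the transcript's 3′ end had a median log2 J2 over input of 0.08, and those between 500 and 1000 bases 0.20. Between 2000 and 3000 bases the median was -0.16, between 3000 and 5000 bases -0.41 and beyond 5000 bases -0.69. The distance counts spliced bases, and the bins were chosen after the gradient along the gene had been seen. At equal distance the values also differed with transcript length. Junctions between 250 and 500 bases from the end stood at 0.35 in transcripts between 1500 and 3000 bases long, at 0.41 in those between 3000 and 5000 bases and at 0.28 in those over 5000 bases. In transcripts of at most 700 bases, 369 junctions of 166 genes had a median of -0.39. Very short transcripts were thus low in J2 RNA throughout, and those over 1500 bases were high near the 3′ end and low far from it. Transcripts under 45% GC were an exception near the end too. Their junctions within 250 bases stood at -0.80 (only 23 junctions of 19 genes) and those between 250 and 500 bases at -0.73 (112 junctions of 74 genes). Between 500 and 1000 bases they stood at -0.18 and between 1000 and 1500 bases at -0.19. Transcript length was not held fixed in this class.

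**Figure D2:**
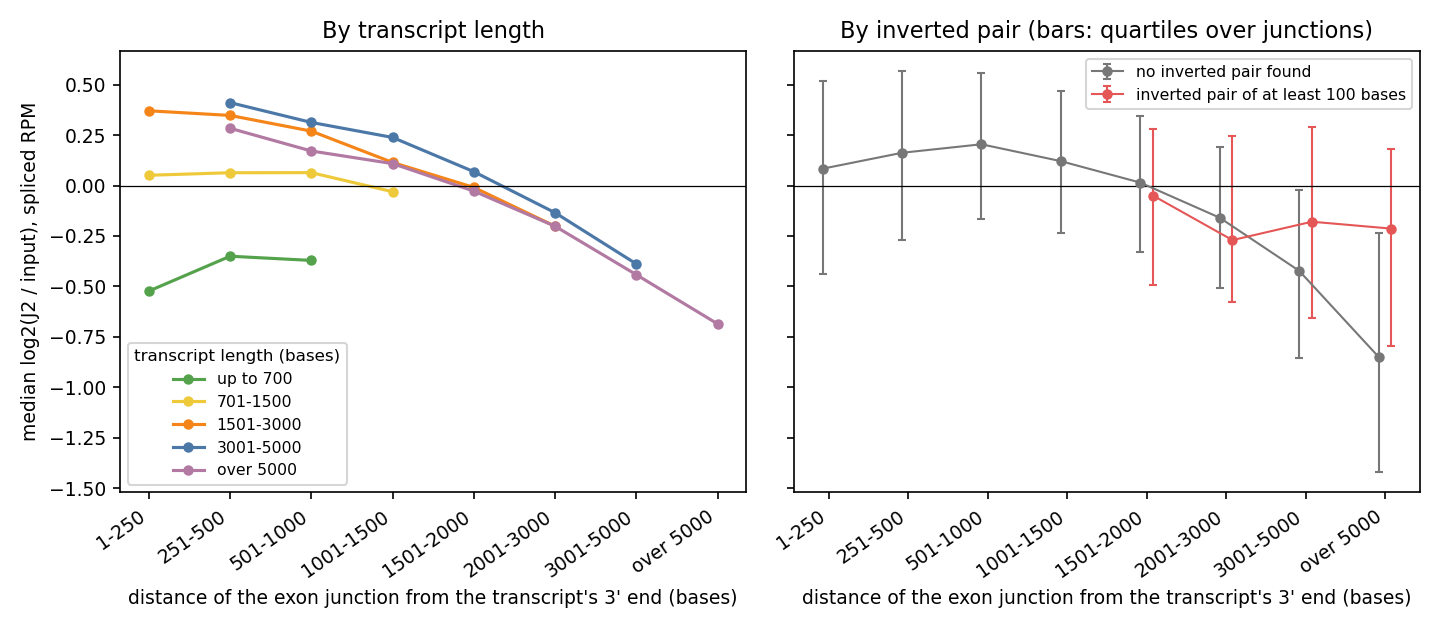
Median log2 ratio of spliced reads in J2 over input RNA per junction, by distance from the transcript's 3′ end in spliced bases, with the classes of transcript length (left) and with or without an inverted pair in the transcript (right, with quartiles). All classes over 1500 bases decline with distance, the class of at most 700 bases lies below 0, and beyond 3000 bases transcripts with an inverted pair lie above those without. GC content and transcript length were not held fixed in the right panel.

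Single genes show how far recovery varied along 1 transcript. FLNA, which encodes the actin crosslinker filamin A, had 956 and 977 RPM of spliced reads in the input against 365 and 366 RPM in J2 RNA (-1.40 ± 0.04, adjusted p = 1.57e-07). At its intron 3, 7645 bases from the 3′ end, J2 RNA held 2.19 and 2.72 RPM against 17.2 and 17.7 RPM in the input, a fold of 0.14. At its last intron 47, 511 bases from the end, it held 21.2 and 22.5 RPM against 25.4 and 25.5 RPM, a fold of 0.861. EIF4G1, the scaffold of the cap-binding complex, was higher as a whole (185 and 183 RPM in the input, 393 and 388 RPM in J2 RNA, 1.09 ± 0.05, adjusted p = 4.62e-07). Its intron 5 stood at 1.10-fold and its intron 29 at 3.47-fold (9.58 and 8.86 RPM against 32.5 and 31.6 RPM). QARS, the glutaminyl-tRNA synthetase gene, ran from 0.939-fold at intron 1 to 4.92-fold at intron 23, where the input had 0.896 and 0.902 RPM and J2 RNA 4.58 and 4.26 RPM. FLNA and EIF4G1 thus both rose in J2 over input towards the 3′ end, by different amounts and around different levels.

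Not every gene followed the distance to the 3′ end. In EIF3F, J2 RNA stood at 2.32-fold to 4.42-fold over introns 1 to 6 and at 0.844-fold at intron 7, the last, where the input had 2.90 and 3.61 RPM and J2 RNA 2.75 and 2.74 RPM. In RPS27A, introns 2 and 3 stood at 4.57-fold and 4.49-fold, and introns 4 and 5, nearer the 3′ end, at 0.823-fold and 1.11-fold. RPS7, another gene of the small ribosomal subunit, stood at 2.58-fold to 3.13-fold over introns 1 to 3 and at 1.07-fold at intron 6. In VIM, which encodes the filament protein vimentin that marks mesenchymal cells, introns 5 and 6 stood at 1.53-fold and 1.58-fold, and introns 8 and 9 at 0.502-fold and 0.293-fold. The change falls between neighbouring junctions in RPS27A and in EIF3F. Genes of ribosomal proteins and EIF3F have processed copies elsewhere in the genome, and how reads were shared with such copies is not given in the sources used here. RPL39 was uniformly low (0.0261-fold and 0.0264-fold at its introns 1 and 2).

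**Figure D3:**
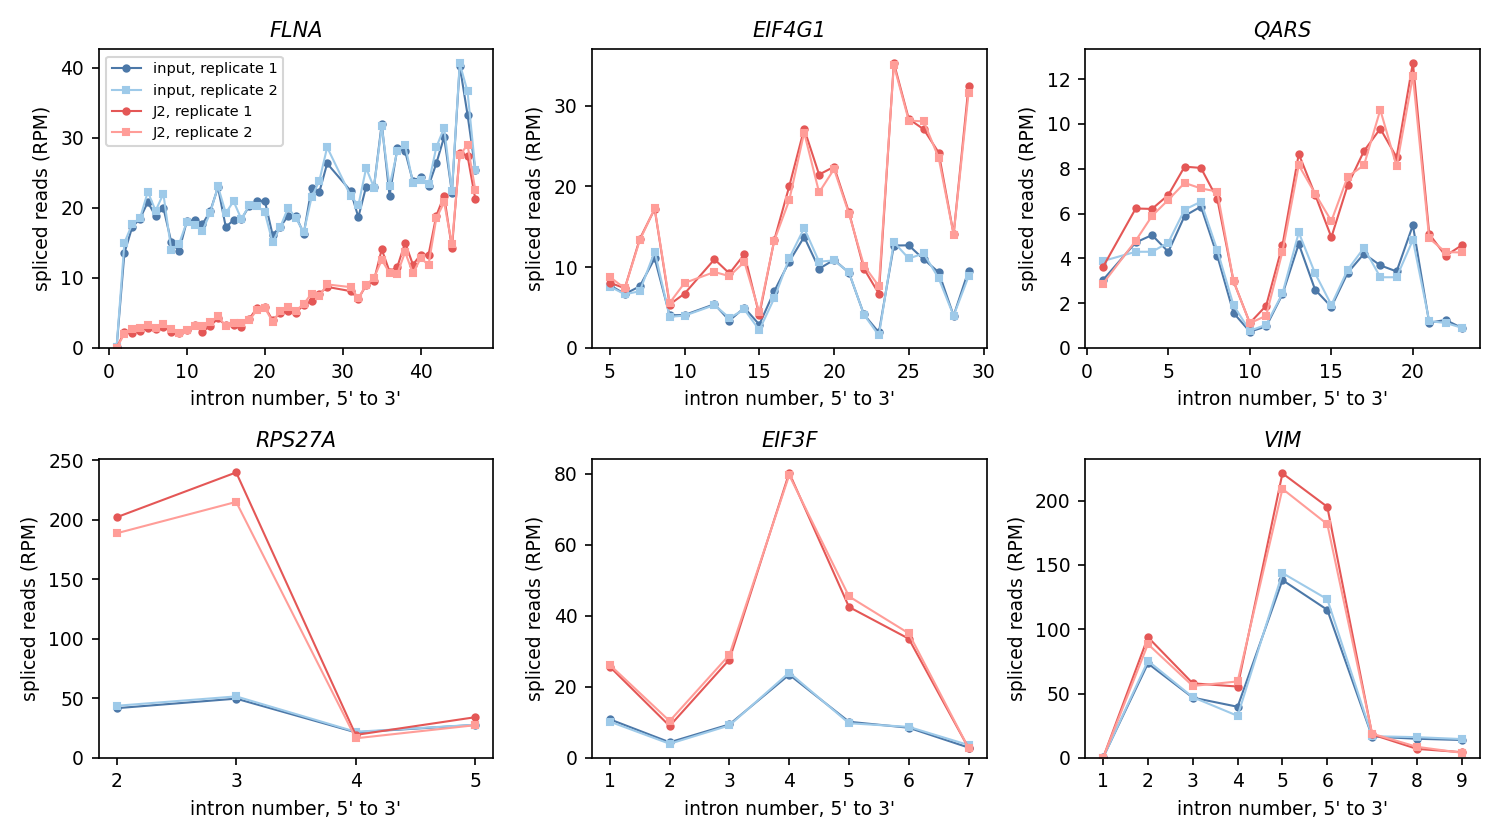
Spliced reads in RPM at each listed intron of 6 genes, numbered from the 5′ to the 3′ end, with 1 line per library (2 of input in blue, 2 of J2 RNA in red). In FLNA, EIF4G1 and QARS the J2 lines gain on the input lines towards the 3′ end, while in RPS27A, EIF3F and VIM they stand above the input in the body and meet or cross it at the last introns.

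Across genes, recovery went with base composition and length. A transcript was linked for 7660 of the 7826 genes. The Spearman correlation of the log2 fold change with its GC content was 0.444 and with its length -0.362, across genes, which are not independent replicates. Genes were cut into 5 groups of equal number by each feature. In the group with the lowest GC content (32.0% to 42.7%) the median log2 fold change was -1.10, with 2.68% of genes higher and 74.0% lower. The next group had a median of -0.43 and the 3 others lay between -0.07 and -0.02. In the group with the longest transcripts, of 5068 bases or more, the median was -0.81, against -0.05 in the shortest. The 3′ UTR length (-0.273), coding length (-0.267) and number of introns (-0.244) followed the same sign, and the 5′ UTR length did not (-0.005). When only the last listed intron of each gene was counted, a reading chosen after the gradient was seen, the correlations were 0.061 with GC content and 0.013 with length over the genes still tested. Those with coding length and number of introns turned sign, to 0.143 and 0.184, and that with 3′ UTR length was -0.104. The balance of calls turned as well, to 1351 higher and 793 lower of 4045 genes. A transcript was linked for 3976 of these, with a median GC content of 55.8% and a median length of 2343 bases. In the 7660 genes the medians were 51.1% and 2834.5 bases. Correlations with all listed introns counted were not computed within the smaller set.

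**Figure D4:**
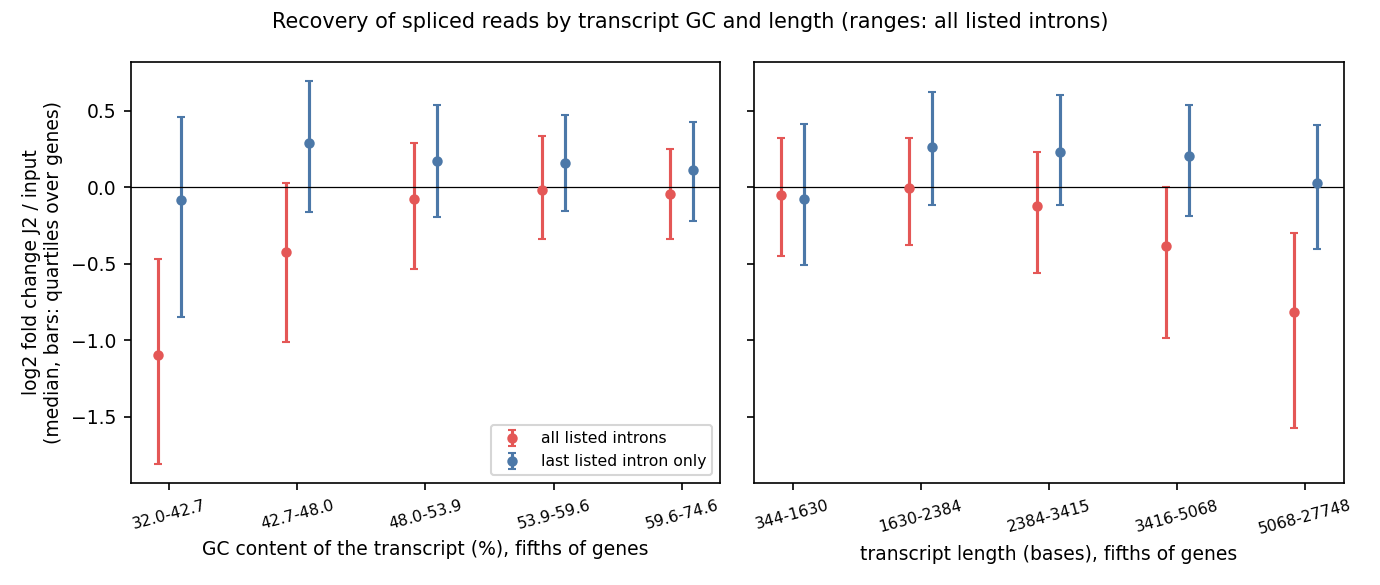
Median log2 fold change of spliced reads (J2 against input, bars give quartiles over genes) in 5 groups of genes of equal number by transcript GC content and by transcript length. With all listed introns the group lowest in GC stands at -1.10 and the longest at -0.81, and with only the last listed intron, for which fewer genes are tested and the bounds of the groups differ from those on the axis, the same 2 groups stand at -0.09 and 0.03.

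Inverted repeats, the source of long intramolecular helices, were sought by aligning each transcript to its own opposite strand. A pair of at least 100 bases was found in 286 tested genes, in 278 of them (97.2%) with both arms in the 3′ UTR. These genes were not higher in J2 RNA as a group: 25 (8.74%) were higher and 148 (51.7%) lower, with a median of -0.50, against -0.23 in 7346 genes with no pair. They had a median length of 6624 bases against 2834.5 over all genes, and a median GC content of 44.5% against 51.1%. With the trend on GC content and length removed, the order turned: 29.7% were higher and 31.5% lower, with a median of -0.01 against -0.38 in genes with no pair. With only the last listed intron counted, the medians were 0.12 in 99 genes with a pair and 0.14 in 3863 without. Per junction, transcripts with a pair stood at -0.21 beyond 5000 bases from the 3′ end (407 junctions of 115 genes) and those without at -0.85 (1530 junctions of 415 genes). Between 3000 and 5000 bases the values were -0.18 and -0.42, and between 2000 and 3000 bases the order was the other way (-0.27 and -0.16). These values are medians with no test, and GC content was not held fixed. Over all transcripts, junctions beyond 5000 bases stood at -0.61 under 45% GC, at -0.43 from 45 to 55% and at -0.96 over 55%.

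The 5 tested genes with the longest pairs gave no common picture. HOOK3, an adaptor of the dynein motor with a pair of 644 bases, fell by 1.64 on the log2 scale, and TMEM192, a lysosomal membrane protein gene with 652 bases, fell by 1.22. PLXNA3, a plexin receptor gene (632 bases), was at -0.79 and YIPF4 (635 bases) at -0.66, which turned to 0.66 with the trend on GC content and length removed. TRUB2, a pseudouridine synthase gene with a pair of 603 bases, stood at -0.04 (adjusted p = 0.595). With only the last listed intron counted, PLXNA3 stood at 0.57 and TRUB2 at 0.49.

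Gene groups are read against all tested genes, of which 17.7% were higher and 43.2% lower in spliced reads by depth (median -0.23). The same shares were 36.1% and 27.3% by median-of-ratios scaling (median 0.10) and 33.4% and 19.6% with only the last listed intron counted (median 0.14). Transcripts of the proteins that sense double-stranded RNA were mostly lower in J2 RNA. Of 12 tested genes of this list 2 were higher and 9 (75%) lower, with a median of -0.96, and 3 were higher and 8 lower by median-of-ratios scaling. With the last listed intron, 5 were tested, 1 higher and 2 lower (median -0.05). With the trend on GC content and length removed, 0 of 12 were higher and 9 lower (median -0.95, against -0.37 over all genes). DDX58 had 2.98 and 2.29 RPM in the input against 0.736 and 0.544 RPM in J2 RNA (-2.04 ± 0.33). EIF2AK2 had 2.19 and 2.57 RPM against 0.811 and 0.579 RPM (-1.78 ± 0.33, adjusted p = 0.00125). IFIH1 had 2.56 and 2.10 RPM against 0.679 and 0.877 RPM (-1.58 ± 0.35, adjusted p = 0.00339). In each of these 3 sensor genes both J2 libraries lay below both input libraries. OAS3, which makes the 2-5A signal for RNase L, fell by 1.47, and TRIM25, the ubiquitin ligase that acts on RIG-I, had 43.2 and 42.8 RPM against 24.9 and 23.6 RPM (-0.83). OASL fell by 0.40 by depth but stood at -0.06 with median-of-ratios scaling. The 2 that rose were DHX58, an RNA helicase related to the sensors (17.5 and 16.7 RPM against 22.7 and 21.8 RPM), and the kinase gene IKBKE (5.79 and 5.94 RPM against 8.53 and 7.67 RPM).

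Of 19 tested genes of proteins that bind, edit or process double-stranded RNA, 2 (10.5%) were higher and 10 (52.6%) lower, with the median of all genes (-0.23). By median-of-ratios scaling 7 were higher and 8 lower, and of 9 tested by the last listed intron 3 were higher and 1 lower (median 0.27). ADAR had 24.1 and 22.7 RPM in the input against 14.0 and 14.6 RPM in J2 RNA (-0.71 ± 0.09, adjusted p = 0.000143). By intron it stood at 0.425-fold at intron 2 and at 1.26-fold at intron 14, and with only the last listed intron counted its log2 fold change was 0.33. STAU1, which binds helices in 3′ UTRs, had 21.4 and 21.0 RPM against 14.8 and 14.3 RPM (-0.54 ± 0.07, adjusted p = 0.000209). The helicase gene DHX9 had 3.60 and 2.92 RPM against 2.08 and 1.84 RPM (-0.74 ± 0.22, adjusted p = 0.0173), and this call was lost on leaving out single libraries (adjusted p up to 0.111). The zinc finger gene ZFR (-1.14) and AGO1, of the microRNA effector complex (-1.34), were lower too. DGCR8, the partner of DROSHA in microRNA processing, rose from 2.65 and 2.75 RPM to 5.47 and 9.96 RPM (1.52 ± 0.31, adjusted p = 0.0021). Its own transcript folds into hairpins that the DROSHA complex cuts. ADARB1, the second editing enzyme, rose from 6.65 and 6.37 RPM to 9.55 and 9.23 RPM (0.53 ± 0.12, adjusted p = 0.00463).

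A list of 16 tested transcripts with reported editing in Alu pairs had 1 higher (6.25%) and 9 lower (56.2%), with a median of -0.73, and 3 higher and 9 lower by median-of-ratios scaling. Of 5 tested by the last listed intron 2 were higher and 2 lower (median 0.39). RHOA, the small GTPase gene, rose from 84.8 and 83.4 RPM to 132 and 127 RPM (0.63). AHR, the aryl hydrocarbon receptor gene (-2.06), COG3 (-1.31) and FLNA (-1.40) fell. XIAP, an apoptosis inhibitor gene with an inverted pair of 354 bases, had 2.65 and 2.69 RPM against 1.72 and 3.33 RPM and did not pass. LYRM7, with a pair of 304 bases, had 1.83 and 2.16 RPM against 2.42 and 2.32 RPM and did not pass either. With the trend on GC content and length removed, 4 of the 16 were higher and 9 lower. Their median was then -0.39, close to the -0.37 over all genes. In that setting XIAP stood at 1.22 (adjusted p = 0.000817) and LYRM7 at 1.45 (adjusted p = 9.54e-05). ADARB1, DGCR8, DHX58, IKBKE, XIAP and LYRM7 were picked out after their values were seen.

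Genes of the translation machinery split within each group. Of 43 tested genes of the large ribosomal subunit 13 (30.2%) were higher and 22 (51.2%) lower (median -0.19, 20 higher and 15 lower by median-of-ratios scaling). RPL12 had 1280 and 1320 RPM in the input against 341 and 349 RPM in J2 RNA (-1.91 ± 0.06, adjusted p = 1.34e-07), and RPLP1 had 549 and 545 RPM against 158 and 164 RPM (-1.77). Of 28 tested genes of the small subunit 9 (32.1%) were higher and 10 (35.7%) lower (median -0.05, 16 higher and 8 lower by median-of-ratios scaling). RPS7 had 636 and 674 RPM against 1782 and 1688 RPM (1.41 ± 0.08), while RPS21 fell by 1.39, RPS28 by 1.07 and RPS2 by 0.86. Of 47 tested translation factor genes 17 (36.2%) were higher and 19 (40.4%) lower (median -0.02, 22 higher and 13 lower by median-of-ratios scaling). EIF4G1 and the elongation factor gene EEF1G (1.26) were higher, and EIF3A (-1.10) was lower. Of 18 aminoacyl-tRNA synthetase genes 3 (16.7%) were higher and 12 (66.7%) lower (median -0.36, 5 higher and 6 lower by median-of-ratios scaling), with LARS at -2.44 and QARS at 0.90. Counting only the last listed intron turned the order for the synthetases (7 higher and 5 lower of 14, median 0.37). It moved the ribosomal genes down, with 11 higher and 24 lower of 42 in the large subunit (median -0.56) and 7 higher and 14 lower of 28 in the small subunit (median -0.35).

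Genes of mitochondrial proteins had medians near that of all genes, and those of the proteasome and of metabolism lay above it by depth. Of 67 tested mitochondrial ribosome genes 10 (14.9%) were higher and 26 (38.8%) lower (median -0.18, 31 higher and 11 lower by median-of-ratios scaling), with MRPL33 at -1.40. Of 64 respiratory chain genes 6 (9.38%) were higher and 34 (53.1%) lower (median -0.24, 24 higher and 11 lower by that scaling), with the ATP synthase subunit gene ATP5I at -1.36. Of 33 proteasome genes 11 (33.3%) were higher and 12 (36.4%) lower (median -0.06, 19 higher and 9 lower by that scaling), with PSMD1 at -1.73 and PSMC5 at 0.70. Of 16 tested glycolysis genes 5 were higher and 4 lower (median 0.01, 10 higher and 2 lower by that scaling), with HK2, a hexokinase gene, at -1.35. Of 16 tested cholesterol genes 3 were higher and 5 lower (median 0.00, 8 higher and 5 lower by that scaling). With the trend on GC content and length removed, proteasome genes had a median of -0.29, glycolysis genes -0.35 and cholesterol genes -0.40. The median of all genes in that setting was -0.37.

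Motor, mitotic and adhesion genes lay well below the median of all genes, and more of them were lower than higher with median-of-ratios scaling too. Of 22 tested kinesin motor genes 1 was higher and 15 (68.2%) were lower (median -1.18, 3 higher and 12 lower by median-of-ratios scaling), with KIF5B at -2.35 and KIF18B at -1.39. Of 27 tested mitotic genes 3 were higher and 16 (59.3%) lower (median -0.64, 5 higher and 13 lower by that scaling). TOP2A, which untangles DNA, had 18.6 and 18.5 RPM in the input against 1.87 and 2.54 RPM in J2 RNA (-3.07 ± 0.22), and CENPE, a motor of the kinetochore, was at -3.93. Of 39 tested adhesion, integrin and laminin genes 3 were higher and 33 (84.6%) lower (median -0.78, 3 higher and 29 lower by that scaling), the largest share of falls among the 32 lists. FN1, the fibronectin gene, had 41.2 and 40.6 RPM against 8.42 and 9.32 RPM (-2.21 ± 0.12), ITGA6 fell by 3.06, COL5A2 by 1.74 and COL5A1 by 1.14. Of 26 chromatin regulator genes 1 was higher and 19 (73.1%) lower (median -0.68, 3 higher and 14 lower by that scaling), with the methyltransferase gene KMT2D at -1.95. Of 33 genes of DNA replication and repair 5 were higher and 17 (51.5%) lower (median -0.43, 10 higher and 13 lower by that scaling), with the damage kinase genes PRKDC at -2.25 and ATM at -2.74. Of 20 chaperone genes 2 were higher and 13 (65.0%) lower (median -0.78, 6 higher and 11 lower by that scaling), with HSP90B1 at -1.81 and HSPA5 at -1.13, both of the endoplasmic reticulum. With only the last listed intron counted, far fewer genes were tested and most of these groups were not lower. Kinesins then had 3 higher and 0 lower of 4 (median 0.46), mitotic genes 3 and 2 of 10 (median 0.07), chromatin regulators 2 and 1 of 9 (median 0.28) and replication and repair genes 4 and 2 of 9 (median 0.40). Chaperones had 4 higher and 5 lower of 12 (median -0.12) and adhesion genes 2 higher and 7 lower of 18 (median -0.23). With the trend on GC content and length removed, the median of all genes was -0.37. Kinesins then stood at a median of -1.05, adhesion genes at -0.86 and mitotic genes at -0.72. Chromatin regulators stood at -0.57, replication and repair genes at -0.52 and chaperones at -0.44.

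Among regulators of RNA, 6 of 44 tested spliceosome genes (13.6%) were higher and 26 (59.1%) lower (median -0.40, 14 higher and 15 lower by median-of-ratios scaling), with the helicase gene DHX15 at -2.02. Of 25 hnRNP genes 9 (36.0%) were higher and 10 (40%) lower (median -0.06, 13 higher and 3 lower by that scaling), with HNRNPA1 at 0.95 and HNRNPL at 0.52 (-0.069 with the trend on GC content and length removed). Of 25 interferon-stimulated genes 4 (16.0%) were higher and 13 (52.0%) lower (median -0.40, 7 higher and 9 lower by that scaling), with the ISG15 ligase gene HERC5 at -2.48 and IFITM3 at -0.46. Of 25 genes of the integrated stress and unfolded protein responses 5 (20%) were higher and 14 (56.0%) lower (median -0.19, 12 higher and 8 lower by that scaling), with TRIB3 at 0.89 and the sensor gene ERN1 at -2.34. The 13 tested mesenchymal markers had 1 higher and 6 (46.2%) lower (median -0.11, 5 higher and 3 lower by that scaling). VIM rose from 459 and 470 RPM to 653 and 626 RPM (0.46 ± 0.05, but -0.051 with the trend on GC content and length removed), and SPARC, a matrix protein gene, fell by 0.88. The median of all genes with that trend removed was -0.37, so VIM and HNRNPL still lay above it. In that setting spliceosome genes had a median of -0.39, hnRNP genes -0.06 and interferon-stimulated genes -0.70. Genes of the stress responses had -0.44 and mesenchymal markers -0.38. The lists were drawn with an earlier reading of these data in view, and their counts are descriptions.

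Intronic reads made up about the same share of all listed reads in both kinds of RNA. The share was 3.81% and 3.83% in the input libraries and 3.63% and 3.98% in the J2 libraries, with J2 replicate 1 below both input libraries and J2 replicate 2 above both. The introns with most reads weighed on this value. One of them, intron 13 of AMBRA1, holds the processed pseudogene AC024293.1 and had 10240 and 10700 reads in the input against 18335 and 19076 in J2 RNA. Over introns free of other genes' exons the share was 3.10% and 3.07% in the input against 2.74% and 2.91% in J2 RNA, so that both J2 libraries lay below. As a mean over genes it was 8.06% and 7.99% against 8.18% and 8.29%, so that both lay above. The smallest two-sided p of an exact permutation test at this size is 0.33, so no test is given.

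Gene by gene, intronic reads were more often lower than higher in J2 RNA, and the order turned with scaling. Of 1645 genes tested, 819 (49.8%) passed: 272 (16.5%) were higher and 547 (33.3%) lower, with a median log2 fold change of -0.17. Median-of-ratios scaling gave 505 higher and 348 lower. Intronic reads went with neither the GC content (Spearman 0.007) nor the length (-0.084) of the transcript, over 1603 genes with a linked transcript. These genes had a median GC content of 56.4%, against 51.1% in the 7660 genes of the spliced correlations. For spliced reads, the correlations with GC content and length were not computed within these 1603 genes. Across the 1557 genes tested for both, the 2 fold changes had a Spearman correlation of 0.426 and a Pearson correlation of 0.422. The 2 counts come from the same libraries. Both kinds of reads were higher in 131 genes and lower in 321, while 51 genes had higher spliced and lower intronic reads and 36 the opposite. The leading higher genes were SDCCAG3 (2.08), RPS12 (2.02), CKS1B (1.87) and KAT8 (1.69), and the leading lower ones VEGFA (-3.62), HUWE1 (-2.85), HEG1 (-2.61) and SNRNP70 (-2.25).

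The ratio of intronic to spliced reads within a gene cancels the depth of a library. By limma's test on its log2, 626 of 1557 genes (40.2%) passed, 257 (16.5%) with a higher ratio in J2 RNA and 369 (23.7%) with a lower one (median -0.09). Scaling each kind of read by its own median of ratios turned the order, to 338 higher and 283 lower (median 0.04). ERN1, which encodes the unfolded protein sensor IRE1, led the rises. Its intronic share of reads was 23.8% and 24.8% in the input against 75.4% and 79.7% in J2 RNA (log2 ratio change 3.42 ± 0.16, adjusted p = 3.24e-05). Its intron 1 had 4.54 and 5.18 RPM of intronic reads in the input against 10.2 and 11.2 RPM in J2 RNA, while its spliced reads fell. CEP120, a centriole gene, went from 64.5% and 63.6% to 93.9% and 90.1% (2.69). EGFR, the epidermal growth factor receptor gene, went from 26.7% and 24.7% to 61.5% and 64.7% (2.30), with the intronic reads of its intron 1 at 3.69 and 3.14 RPM in the input against 3.47 and 3.60 RPM in J2 RNA. In EGFR the ratio thus moved through the spliced reads and in ERN1 through both. Only introns 1 to 9 of the 27 in EGFR are listed, and their junctions lie 8511 to 9556 bases from the 3′ end. Those of ERN1 lie 5059 to 7726 bases from it. Over all transcripts, junctions in the farthest distance bin had a median log2 J2 over input of -0.69. Whether these ratios rose beyond that trend was not tested. In the other direction VEGFA, the angiogenic growth factor gene, went from 22.3% and 23.7% to 2.92% and 2.79% (-3.31). EGLN2 (-2.99), PTOV1 (-2.87), TEAD3 (-2.41), SH3GLB2 (-2.37) and PPIB (-2.36) followed. In PPIB, a prolyl isomerase gene, intron 3 went from 2.62 and 2.94 RPM to 0.302 and 0.404 RPM.

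Single introns moved both ways. Of 1368 introns with at least 1 RPM, 680 (49.7%) passed, 302 (22.1%) higher and 378 (27.6%) lower in J2 RNA, with a median of -0.04. The balance turned with TMM scaling (461 higher, 277 lower) and with median-of-ratios scaling (435 and 294). By position, of 390 tested first introns 57 (14.6%) were higher and 134 (34.4%) lower, with a median of -0.20. Of 208 tested last introns 53 (25.5%) were higher and 37 (17.8%) lower, with a median of 0.12. Intron length showed no such split (436 introns of at least 5000 bases had 108 higher and 109 lower). Of the tested introns, 945 hold another annotated exon of their own gene, so that their reads need not come from a kept intron. The 337 free of any other exon had 71 higher and 85 lower, with a median of -0.03.

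Several of the leading introns hold another gene. Intron 3 of RPS12, a ribosomal protein gene, went from 5.58 and 6.41 RPM to 25.2 and 24.9 RPM (2.06 ± 0.12, adjusted p = 2.03e-11). It holds SNORD101, a small nucleolar RNA of the C/D class, which guides methylation of other RNAs. Intron 10 of GLTSCR2 (1.23) holds SNORD23, of the same class. The files do not say which bases of an intron the reads cover. Of all 15 tested introns that hold a small nucleolar or Cajal body RNA, 7 were higher and 5 lower, against 22.1% and 27.6% over all tested introns. Both sequences are shown because they are the small nucleolar RNAs inside the leading introns, with capitals for the C box tgatga and the last ctga, the D box. Letters are from GENCODE 29 (GRCh38), 5′ to 3′. SNORD101 lies at chr6:132815307-132815379 on the plus strand and SNORD23 at chr19:47755853-47755962 on the plus strand. Of 288 SNORD transcripts, 220 (76.4%) hold these letters in that order.
SNORD101: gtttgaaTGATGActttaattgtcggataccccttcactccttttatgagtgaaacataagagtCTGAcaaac
SNORD23: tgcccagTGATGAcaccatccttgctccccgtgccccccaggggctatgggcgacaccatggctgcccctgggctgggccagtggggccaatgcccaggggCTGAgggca

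Processed pseudogenes, copies of spliced mRNAs, lay in others. Intron 2 of CHCHD3, at chr7:133024628-133070141 on GRCh38, holds the processed pseudogene AC008038.1 with MIR3654 and had the most reads of the leading introns, 230 and 321 RPM in the input against 662 and 781 RPM in J2 RNA (1.39). Intron 45 of NBEAL1 holds RPL12P16, a copy of RPL12, and went from 137 and 134 RPM to 28.8 and 34.3 RPM (-2.10), next to -1.91 for the spliced reads of RPL12 itself. Intron 3 of TAOK3 holds RPS2P5, a copy of RPS2 (-2.06, against -0.86 for spliced RPS2). Reads of a parent mRNA that were placed in its copy would appear here as intronic, and that was not tested. Intron 8 of CAGE1 (1.37) overlaps SSR1 and holds 2 pseudogenes, intron 1 of CKS1B (1.87) holds MIR4258, and intron 3 of APBA3 (2.26, from 1.38 and 1.18 RPM to 5.85 and 6.35 RPM) holds an overlapping and an antisense transcript.

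VEGFA intron 3, at chr6:43777666-43778459 on GRCh38 and free of other genes, had the largest fall of the leading introns. It held 8.90 and 9.35 RPM of intronic reads in the input against 0.736 and 0.702 RPM in J2 RNA (-3.66 ± 0.18, adjusted p = 2.47e-12), while spliced reads across it were 17.0 and 16.5 RPM against 13.4 and 13.5 RPM. Intron 7 of SNRNP70, whose protein is part of the U1 particle (-2.69), intron 5 of HEG1 (-2.63), intron 5 of MAPK8IP3 (-2.52) and intron 1 of RPL12 (-2.21, from 32.9 and 29.6 RPM to 6.26 and 7.26 RPM) were also lower. The single tested intron in which an inverted pair was found, intron 2 of the sulfurtransferase gene MPST, stood at -0.20 (adjusted p = 0.533). Only 287 of the 1368 tested introns had a sequence, so this check over introns is void.

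**Figure D5:**
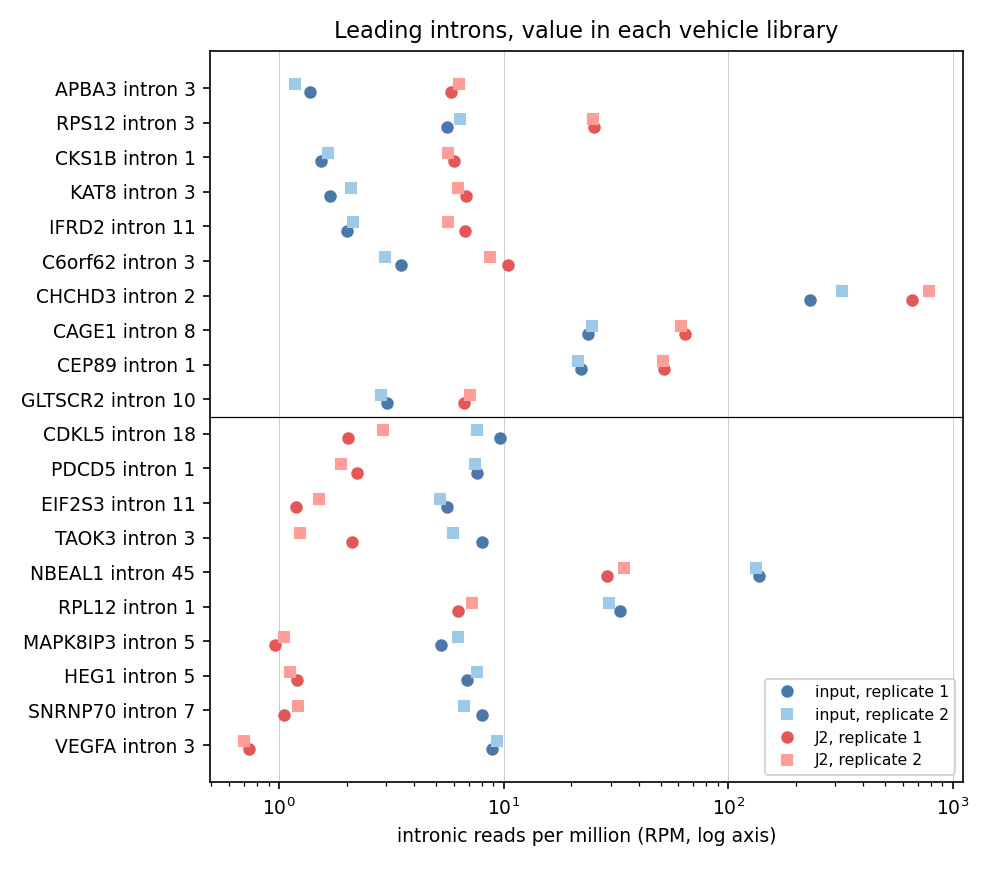
Intronic reads in RPM (log axis) in each of the 4 libraries for the 10 leading introns higher and the 10 lower in J2 RNA. Replicates lie close together and both J2 libraries lie on 1 side of both input libraries, from VEGFA intron 3 (8.90 and 9.35 RPM in the input, 0.736 and 0.702 in J2 RNA) to CHCHD3 intron 2 with 230 to 781 RPM.

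Short introns that some annotated transcript keeps can be read in full. A set of 46 such introns of at most 300 bases, free of other genes and past the threshold, was considered. Of these, 22 were higher and 24 lower. The set need not hold every intron that meets these terms. The 4 highest and 3 of the lowest in this set are shown so that their make-up can be seen. They were chosen after their values were seen. Letters are on the gene's strand, 5′ to 3′, from GENCODE 29 transcripts (GRCh38), with capitals for the first and last 2 bases, the splice sites. Those higher in J2 RNA were intron 11 of IFRD2 (chr3:50288272-50288408, minus strand, 59.1% GC), intron 2 of EIF3F (chr11:7991852-7992083, plus strand, 49.6%), intron 5 of RPLP0 (chr12:120198740-120198853, minus strand, 51.8%) and intron 3 of IFRD2 (chr3:50290295-50290387, minus strand, 63.4%).
IFRD2 intron 11: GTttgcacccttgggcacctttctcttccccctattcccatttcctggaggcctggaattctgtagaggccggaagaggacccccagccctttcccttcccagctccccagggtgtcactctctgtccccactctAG
EIF3F intron 2: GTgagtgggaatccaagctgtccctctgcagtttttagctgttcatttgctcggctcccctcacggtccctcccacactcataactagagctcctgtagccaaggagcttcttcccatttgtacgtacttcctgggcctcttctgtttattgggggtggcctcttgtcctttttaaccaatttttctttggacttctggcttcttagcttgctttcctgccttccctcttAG
RPLP0 intron 5: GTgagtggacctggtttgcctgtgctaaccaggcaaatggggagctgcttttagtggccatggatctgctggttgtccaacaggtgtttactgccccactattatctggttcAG
IFRD2 intron 3: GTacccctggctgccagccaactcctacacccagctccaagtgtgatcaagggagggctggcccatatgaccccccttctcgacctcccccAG

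Those lower were intron 2 of KIAA0368 (chr9:111484262-111484353, minus strand, 70.7% GC), intron 2 of PPDPF (chr20:63521364-63521511, plus strand, 74.3%) and intron 3 of CDC37 (chr19:10395344-10395434, minus strand, 64.8%).
KIAA0368 intron 2: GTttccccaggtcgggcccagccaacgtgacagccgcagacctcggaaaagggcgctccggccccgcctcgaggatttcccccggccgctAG
PPDPF intron 2: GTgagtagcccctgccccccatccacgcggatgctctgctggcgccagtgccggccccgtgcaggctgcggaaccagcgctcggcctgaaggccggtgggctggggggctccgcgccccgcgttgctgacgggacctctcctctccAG
CDC37 intron 3: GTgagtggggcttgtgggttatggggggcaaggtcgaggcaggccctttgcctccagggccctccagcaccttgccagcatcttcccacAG

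IFRD2 intron 11 went from 2.00 and 2.14 RPM of intronic reads to 6.74 and 5.65 RPM (1.58 ± 0.13, adjusted p = 5.44e-09). Its intronic share of reads fell from 17.8% and 19.6% to 15.8% and 14.8%, so its spliced reads rose as well. EIF3F intron 2 went from 1.29 and 1.00 RPM to 3.04 and 2.56 RPM (1.29), next to a similar rise of the gene's spliced reads. RPLP0 intron 5, of a ribosomal stalk gene, went from 2.00 and 1.67 RPM to 3.98 and 4.81 RPM (1.26), and IFRD2 intron 3 from 0.917 and 0.882 RPM to 1.49 and 1.98 RPM (0.95). For RPLP0 intron 5 the intronic shares overlapped between the input (1.02% and 0.906%) and J2 RNA (0.929% and 1.12%). Those of IFRD2 intron 3 did too (7.89% and 6.92% against 6.58% and 8.52%). The introns of RPLP0, KIAA0368, PPDPF and CDC37 hold another annotated exon of their own gene, so their reads need not come from a kept intron, and no spliced read crossed that of KIAA0368 in any of the 4 libraries. In the other direction, KIAA0368 intron 2 went from 2.00 and 1.71 RPM to 0.170 and 0.368 RPM (-2.76), and PPDPF intron 2 from 2.19 and 2.25 RPM to 0.226 and 0.526 RPM (-2.54). Intron 3 of CDC37, a cochaperone that brings kinases to HSP90, went from 1.83 and 1.65 RPM to 0.358 and 0.263 RPM (-2.48).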

How the data were processed

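Polyadenylated RNA from input and J2 immunoprecipitation was sequenced, and reads were aligned with HISAT2 2.0.4 per the submitters' processing notes, which name the builds hg38 and mm10. The counting program and its strand setting are not given in the sources used here, so reads of a gene and its antisense partner cannot be told apart. The authors deposited, for each intron, a whole-number count taken as reads inside it and a larger count whose excess was taken as spliced reads. This reading was inferred from the values. The deposited RPKM gave the depth of each library, which the authors used as its divisor, and RPM here means reads per 1000000 of that depth. Of 142224 introns, 18 without a total were left out.

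Spliced and intronic reads per gene and intronic reads per intron were tested with edgeR 4.0.16 (quasi-likelihood, library size equal to the depth) and, with limma 3.58.1, the log2 ratio of intronic to spliced reads, with 1 added to each. The fit held 8 libraries and 4 group means, features needed a mean of 1 RPM over the 4 libraries compared, and Benjamini-Hochberg adjustment ran over all tested, with a threshold of 0.05. For edgeR the SE was derived from the fold change and the F value. It is not known whether replicates came from parallel or separate cultures, so p-values measure the spread between these libraries. The edgeR and limma fits were run on simulated counts. GENCODE 29 transcripts were linked for 15470 genes, inverted pairs of at least 50 bases were found with BLAST 2.17.0 and overlaps with bedtools 2.31.1 (R 4.3.3).

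Named features follow a rule: up to 10 each way per test, with the largest fold past the threshold, 5 RPM in 1 group and J2 libraries on 1 side of both input libraries, up to 4 members per list by p, 7 genes of double-stranded RNA biology and up to 5 genes and introns with the longest inverted pairs. Some features that the rule or the choice of sequences names are not reported here. Others named without the rule were singled out for their profile after values were seen. The comparison, the lists and the tests were chosen with earlier results of these data known. Alternatives were TMM and median-of-ratios scaling, DESeq2 1.42.0, other filters and pseudocounts, a replicate block, removal of the GC and length trend, single libraries left out and the last listed intron only.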

Additional observations from a re-analysis of the deposited data

How the results depend on the processing

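Of 3077 recomputed values for the 212 named features, 2951 kept their direction and their side of the threshold, 84 lost the threshold, 15 gained it and 27 turned sign. Scaling, the filter on low values and the choice of introns each moved the counts. Genes with higher spliced reads numbered 1382 by depth, 2352 with TMM, 2825 with median-of-ratios scaling and 2581 with DESeq2, and 880 with the GC and length trend removed (910 with the replicate block as well). Genes with lower spliced reads numbered 3382 by depth, 2137 with median-of-ratios scaling and 1966 with DESeq2. Where fewer genes were tested, they numbered 1878 of 4793 at a minimum of 5 RPM and 793 of 4045 with only the last listed intron. For intronic reads, 272 genes were higher by depth, 510 with TMM, 505 with median-of-ratios scaling, 445 with DESeq2 and 100 at 5 RPM, and 547 were lower by depth, against 342, 348, 310 and 81. Without the low-value filter 1682 were lower, and with 1 RPM in 2 of 8 libraries 1174. For the ratio, 257 genes were higher, against 109 without the filter, 74 at 5 RPM and 156 to 169 on leaving out single libraries, and 369 were lower, against 194, 61 and 225 to 304, or 712 with 1 RPM in 2 of 8 libraries. Of introns, 302 were higher, 461 with TMM and 82 at 5 RPM, and 378 were lower, 277 with TMM, 1313 without the filter, 48 at 5 RPM and 928 with 1 RPM in 2 of 8 libraries. The number tested differed. For intronic reads 1645 genes were tested, 259 at 5 RPM, 11395 without the filter and 3992 with 1 RPM in 2 of 8 libraries. For the ratio these numbers were 1557, 226, 11045 and 3837, and for introns 1368, 182, 45295 and 5156. At 5 RPM 45.1% of introns were higher and 26.4% lower, against 22.1% and 27.6% by depth. Without the filter the shares were 0.779% and 2.90%. The causes were not tested.

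The J2 minus input difference in the intronic share was -0.0190 percentage points, -0.263 over introns free of other genes, -0.238 without the 2 introns with most reads and 0.206 as a mean over genes. The difference of J2 from input in the log2 ratio of first over last introns was -0.58, -0.53 with at least 5 listed introns and -0.81 with at least 15. Of the 27 turned signs, 10 arose with only the last listed intron, 12 with the GC and length trend removed (6 of them with the replicate block) and 5 with another scaling or DESeq2. With only the last listed intron, EIF3F stood at -0.25, VIM at -1.77, ADAR at 0.33, DHX38 at 0.15, SRRM2 at 0.11, SLC2A1 at 0.10, SCARB2 at 0.083, STAU1 at 0.088, PLXNA3 at 0.57 and TRUB2 at 0.49. With the GC and length trend removed, HNRNPL stood at -0.069, ENO1 at -0.10, VIM at -0.051, KRT8 at -0.44, KRT18 at -0.58 and YIPF4 at 0.66, and with the replicate block as well at -0.069, -0.10, -0.052, -0.44, -0.59 and 0.66. The median of all genes was -0.37 in both of these settings, against -0.23 by depth, so a turned sign there is partly a lower baseline. TNIP1 stood at 0.018 with median-of-ratios scaling and DESeq2, and TRUB2 at 0.18 with TMM and 0.29 with both of these.

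The labels number replicates but do not say that a number marks a shared culture. Deviations of same-numbered vehicle libraries from their group means had correlations of 0.35 (spliced reads), 0.28 (intronic reads) and 0.41 (introns), and the drug libraries -0.04, 0.24 and 0.24. With the replicate block 1346 genes were higher and 3376 lower in spliced reads, 220 and 294 in the ratio, and 212 of 212 named features kept direction and side. Intronic levels near 1 RPM rest on about 50 reads a library, which limits the calls on single introns.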
